A study of Mus musculus with 6 samples.

Results

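Aminoacyl-tRNA synthetases were examined in whole retinas of DBA/2J mice at 3 and 8 months of age. The list held 36 genes, 20 for enzymes that serve the cytosol and 16 for enzymes that serve mitochondria, and members were found as probe sets whose only gene symbol in the platform annotation was on it. It gave 72 of the 45037 probe sets of the array, for 35 of the 36 genes, and Dars, the cytosolic aspartyl enzyme, had no such probe set in the annotation used here, so its expression was not analysed here. Each of 6 arrays held 1 retina from 1 female, 3 retinas per age. At 3 months the animals had normal intraocular pressure, with a last reading of 17.5 ± 1.99 mmHg in the sampled eyes, and at 8 months elevated pressure, at 27.4 ± 2.67 mmHg (SD, n = 3 each). All 6 animals shared the inbred DBA/2J background, which develops pigment-related glaucoma with age, and no other strain, transgene or treatment was on the arrays. Older animals were picked for high pressure, so age and pressure cannot be told apart. Each retina was a separate mouse per the labels, all 3-month retinas were left eyes, and 2 of the 3 older ones were right eyes.

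Aminoacyl-tRNA synthetases join each amino acid to its own tRNA, the step that fixes the meaning of the genetic code. Mammalian cells mostly carry separate nuclear genes for the cytosolic and the mitochondrial enzyme of an amino acid, although Gars and Kars each encode both forms. Several cytosolic enzymes sit together in a multisynthetase complex. When charged tRNA runs short, the kinase GCN2 phosphorylates the initiation factor eIF2, and the transcription factor ATF4, made under that condition, raises many cytosolic synthetase genes together with amino acid transporters and biosynthetic enzymes. Defects of single synthetases cause neuropathies, for Gars and Yars among others, and the retina, with its high rate of protein renewal in photoreceptors, expresses both sets.

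ATF4 acts at a short composite element whose core was searched as TGATGNAA on both strands, in RefSeq promoter windows of build GRCm38.p6 that run from 250 bases before to 50 bases after a start. Windows were held for 27 members. The core was present in 5 of 13 cytosolic genes with a window (Dars among the 13) and in 0 of 14 mitochondrial ones, against 4.51% of all 27025 genes in that table. The other 8 cytosolic windows lacked it as well. 1 match for each of the 5 genes is shown here, to let the letters be set beside the expression values. Each line gives 30 bases, 5′ to 3′ along the gene, with the match in capitals.
Aars, chr8:111033840-111033869, plus strand: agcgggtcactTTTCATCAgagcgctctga
Gars, chr6:55037960-55037989, plus strand: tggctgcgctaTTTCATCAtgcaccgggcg
Iars, chr13:49682126-49682155, plus strand: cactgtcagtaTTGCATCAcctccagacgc
Tars, chr15:11399655-11399684, minus strand: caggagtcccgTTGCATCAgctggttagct
Yars, chr4:129189895-129189924, plus strand: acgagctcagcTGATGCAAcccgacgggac
The matches shown began 30 and 15 bases before the start in Gars and Tars, and within the first transcribed bases in Aars, Iars and Yars. Those of Iars, Tars and Yars read TTGCATCA or its complement, and those of Aars and Gars TTTCATCA. Aars also held a second match, not shown, which read TTGCATCA and began 112 bases before the start. An E-box, CACGTG, which overlaps no match of the other core, was found in 4 of the 13 cytosolic genes (Aars, Farsb, Iars and Tars), in 1 of the 14 mitochondrial ones (Ears2), and in 8.09% of all genes. A match is a description of letters and was not tested for binding.

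The 250 bases before the start are shown for Gars and Tars, cytosolic genes that carry the core there, and for Lars2, the mitochondrial leucyl gene, whose stretch holds neither motif. None of these 3 stretches overlapped an annotated gene.
Gars, chr6:55037751-55038000, plus strand: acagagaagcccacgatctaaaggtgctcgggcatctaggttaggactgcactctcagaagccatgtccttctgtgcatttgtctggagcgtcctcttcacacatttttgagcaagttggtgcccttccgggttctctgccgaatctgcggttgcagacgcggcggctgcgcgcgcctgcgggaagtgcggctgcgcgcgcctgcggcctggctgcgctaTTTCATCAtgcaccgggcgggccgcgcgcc
Tars, chr15:11399659-11399908, minus strand: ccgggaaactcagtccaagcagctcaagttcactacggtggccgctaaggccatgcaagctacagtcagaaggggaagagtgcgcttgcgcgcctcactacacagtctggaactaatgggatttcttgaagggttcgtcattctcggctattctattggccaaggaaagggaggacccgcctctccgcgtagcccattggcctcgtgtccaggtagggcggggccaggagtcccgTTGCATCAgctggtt
Lars2, chr9:123366677-123366926, plus strand: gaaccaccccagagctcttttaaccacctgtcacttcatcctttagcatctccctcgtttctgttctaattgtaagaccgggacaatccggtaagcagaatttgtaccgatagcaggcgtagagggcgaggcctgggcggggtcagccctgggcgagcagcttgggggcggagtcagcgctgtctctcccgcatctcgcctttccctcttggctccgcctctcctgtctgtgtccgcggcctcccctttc
The share of G and C in them was 62.4%, 57.6% and 59.2%.

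Values are deposited log2 signals, and a difference is the mean at 8 months minus that at 3 months. A probe set was tested where at least 3 of its 6 values reached 4, which kept 55 of the 72 and represented 31 genes, 19 cytosolic and 12 mitochondrial, each by its brightest kept probe set. The 4 genes below that level were all mitochondrial: Nars2, Pars2, Sars2 and Wars2. By the value that had to reach 4, Sars2 lay just outside, at 3.9995, and Vars just inside, at 4.187. Testing used limma over all 20973 kept probe sets. Of the 20973 probe sets, 1 (0.00477%), and of the 11219 genes they represent, 1 (0.00891%), passed a Benjamini-Hochberg adjusted p of 0.05, and of the 31 synthetase genes 0 passed, the smallest limma adjusted p being 0.177, for Aars. At an unadjusted limma p under 0.05, 10 synthetase genes were lower and 0 higher at 8 months. What follows gives levels and differences, none of which passed the test.

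Correlations between arrays were 0.985 to 0.994. The median log2 signal of the kept probe sets was 6.41, 6.37 and 6.40 in the 3-month retinas and 6.31, 6.30 and 6.32 in the 8-month retinas, so the older arrays were dimmer without overlap. With arrays centred on that median, the cytosolic synthetase median of -0.20 became -0.12 and the mitochondrial one of -0.16 became -0.073. Rod markers, 6 of 8 listed and all kept, had a mean log2 level of 11.90 to 11.96 at 3 months and 11.81 to 11.88 at 8 months, so the labelled tissue was borne out. Lens crystallin and fibre markers, 14 of 15 in the annotation and 10 kept, set 3-month retina 3 and 8-month retina 1 apart, at list means of 8.85 and 7.51 over the 14 against 3.67 to 5.02 in the others, and values without both are given where they matter. Microglia markers, 12 in the annotation and 5 kept, had list means over all 12 of 4.17 to 4.22 at 3 months and 4.42 to 4.499 at 8 months. The 5 kept ones all stood higher at 8 months, by a median of 0.65, and 4 of 5 were separate by age with an unadjusted limma p under 0.05, 0 passing the adjusted threshold. Of all genes, 6.05% were separate and higher, and 3.58% were higher at that p. The 3′ minus 5′ log2 signal of Gapdh, a measure of RNA integrity, was 0.707 to 0.751 at 3 months and 0.755 to 0.811 at 8 months. The same measure for beta-actin overlapped between ages, at 1.62 to 1.87 and 1.71 to 1.84. Müller glia and ganglion cell markers, 7 kept of each, overlapped between ages, with list means of 10.58 to 10.69 and 8.75 to 8.93 at 3 months and 10.68 to 10.81 and 8.71 to 8.77 at 8 months. The rod and microglia means, the Gapdh measure and the array median did not overlap between ages. Apart from the centring above, their part in the synthetase differences was not tested. In whole tissue, fewer cells of a type and less RNA per cell cannot be told apart.

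The cytosolic synthetase genes lay almost uniformly lower in the older retinas. Of 19 genes, 18 had a difference below 0, against 63.5% of all genes, and the median difference was -0.20, against -0.058 over all genes. The differences ran from -0.55 for Aars to 0.11 for Cars, the cysteinyl enzyme. At an unadjusted limma p under 0.05, 8 of 19 were lower, against 11.5% of all genes, and 0 were higher, against 3.58%. In 12 of 19 every older retina lay below every younger one, against 16.9% of all genes, and in 0 the reverse held, against 6.05%. Scaling bears on these counts: 18 of 19 stayed lower after quantile normalisation, cyclic loess and median centring, and 15 with arrays centred on the kept probe sets. Of all genes, 54.7%, 53.5%, 68.2% and 44.4% were lower under these, in that order. The number of cytosolic genes lower at an unadjusted p under 0.05 was 4 after quantile normalisation, 4 after cyclic loess and 11 after median centring. The count of 12 genes separate by age was 6, 5 and 4 after quantile normalisation, cyclic loess and centring on the kept probe sets, where 11.6%, 11.3% and 7.45% of all genes were so. The shares of all genes lower and higher at that p were 7.18% and 5.20% after quantile normalisation, 6.67% and 5.62% after cyclic loess, and 5.03% and 8.54% with arrays centred on the kept probe sets. After median centring these shares were 13.6% and 2.78%. The number at an unadjusted p under 0.05 was also 4 without 8-month retina 1, 4 without 8-month retina 2, and 5 without 3-month retina 1 or without 3-month retina 3, fits in which 6.90% to 8.84% of all genes were lower at that p.

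**Figure D1:**
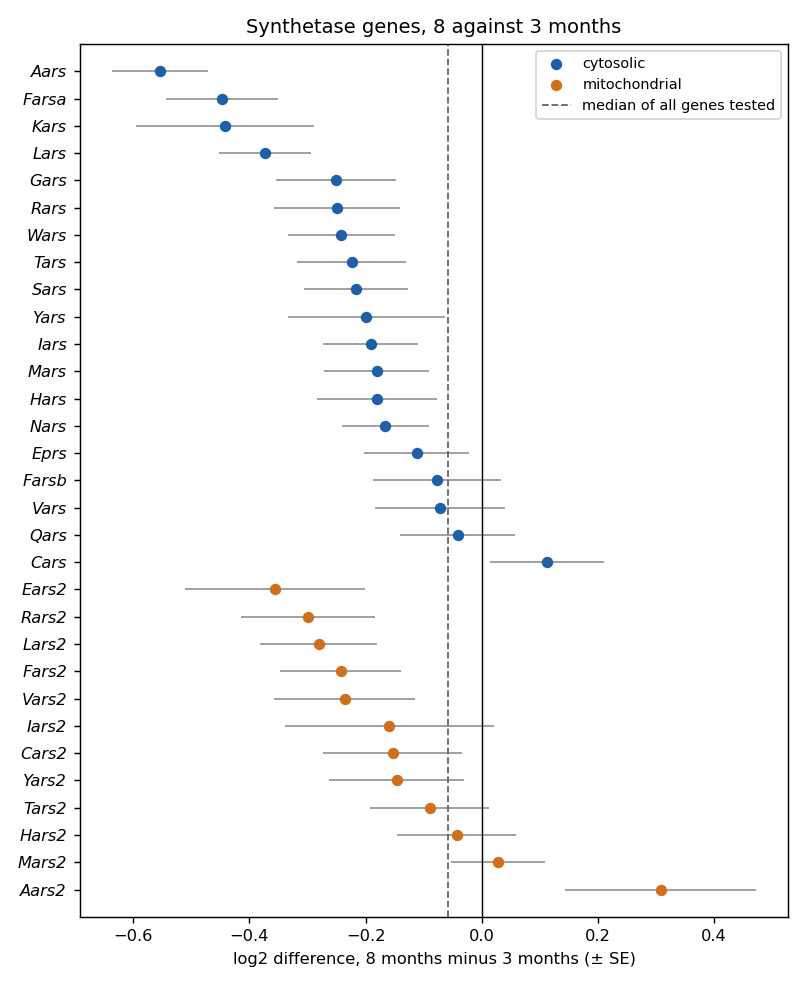
Log2 difference, 8 months minus 3 months, with its limma standard error (x axis) for the 31 synthetase genes tested (y axis), cytosolic in blue above and mitochondrial in orange below; 3 retinas per age. The dashed line is the median of all genes tested, -0.058. Below 0 lie 18 of 19 cytosolic and 10 of 12 mitochondrial genes, against 63.5% of all genes. With arrays centred on the kept probe sets 15 and 9 do, against 44.4% of all genes.

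Aars, the alanyl enzyme, had the largest difference of the 31 genes. It read 7.24, 7.23 and 7.40 in the 3-month retinas 1 to 3 and 6.77, 6.74 and 6.70 in the 8-month retinas 1 to 3. The ages were clearly separate, with a spread within each smaller than the gap between them. The means were 7.29 ± 0.098 and 6.74 ± 0.031 (SD, n = 3), a signal 1.47-fold higher at 3 months, with a difference of -0.55 ± 0.083 (SE, limma unadjusted p = 2.82e-04, adjusted p = 0.177), and Aars ranked 13 of 11219 genes by p. Its value came from a probe set of a type that can match further transcripts. The more specific Aars probe set was lower by less, at -0.19 ± 0.10 with overlapping ages (limma unadjusted p = 0.109).

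Lars, the leucyl enzyme of the multisynthetase complex and an amino acid sensor in growth signalling, read 7.38, 7.25 and 7.39 at 3 months and 6.95, 6.999 and 6.95 at 8 months. The older retinas were close together and all below the younger ones. The difference was -0.37 ± 0.079 (SE, limma unadjusted p = 0.00218, adjusted p = 0.207), from the single Lars probe set. Under the 18 alternatives run it lay between -0.42 and -0.29, with an unadjusted limma p between 5.54e-04 and 0.0268 and an adjusted p between 0.106 and 0.664. The filters, probe-set choices, intensity trend and replicate block could not change this difference.

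Kars, the lysyl enzyme of cytosol and mitochondria, read 7.82, 7.30 and 7.30 at 3 months and 7.12, 6.99 and 6.99 at 8 months. No values of the ages overlapped, but 3-month retina 1 stood well above the other younger ones. The difference was -0.44 ± 0.15 (SE, limma unadjusted p = 0.0231, adjusted p = 0.285) and was -0.27 without 3-month retina 1. Gars, the glycyl enzyme of both compartments, read 8.32, 8.03 and 8.18 at 3 months and 7.82, 7.94 and 8.02 at 8 months. Its ages nearly met without overlap, at a difference of -0.25 ± 0.10 (SE, limma unadjusted p = 0.0449, adjusted p = 0.326).

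Farsa, the catalytic subunit of the cytosolic phenylalanyl enzyme, read 6.47, 6.45 and 6.27 at 3 months and 6.07, 5.89 and 5.89 at 8 months in its brightest probe set. All older values lay below the younger ones, with a difference of -0.45 ± 0.10 (SE, limma unadjusted p = 0.00226, adjusted p = 0.208). Farsb, which encodes the partner subunit of the same enzyme, read 8.54, 8.27 and 8.19 at 3 months and 8.28, 8.19 and 8.30 at 8 months, so that the ages overlapped (difference -0.077 ± 0.11, SE). Other Farsa probe sets went the opposite way. A dim one read 3.96, 4.30 and 3.84 at 3 months and 4.56, 4.74 and 4.51 at 8 months, a difference of 0.57 ± 0.14 with the older retinas all above (SE, limma unadjusted p = 0.00414, adjusted p = 0.222). A brighter one had a difference of 0.25 ± 0.15 with overlapping ages. Averaged over its 3 kept probe sets, Farsa differed by 0.12, so its direction depends on the probe set chosen.

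Sars, the seryl enzyme, read 8.60, 8.45 and 8.59 at 3 months and 8.28, 8.27 and 8.44 at 8 months, a difference of -0.22 ± 0.090 (SE, limma unadjusted p = 0.0462, adjusted p = 0.329). Its other probe set differed by -0.21 ± 0.092, although 8-month retina 2 there reached into the range of the younger retinas. Tars, the threonyl enzyme, read 7.04, 6.89 and 7.14 at 3 months and 6.84, 6.73 and 6.83 at 8 months, a difference of -0.22 ± 0.094 (SE, limma unadjusted p = 0.0480, adjusted p = 0.332). In both genes the older retinas lay below the younger ones in the brightest probe set, by a small margin.

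Wars, the tryptophanyl enzyme, is also known as an interferon-induced gene. Its brightest probe set read 6.44, 6.62 and 6.62 at 3 months and 6.27, 6.26 and 6.42 at 8 months, a difference of -0.24 ± 0.092 (SE, limma unadjusted p = 0.0334, adjusted p = 0.305). The ages were narrowly separate there. Of its other probe sets, differences were -0.21 and -0.054 in those named _x_at and _a_at. The difference was 0.22 ± 0.15 (SE) in the one named plain _at, which lay close to the filter with overlapping ages. Of 18 interferon response genes listed, 10 were tested, and 8 of these 10 stood higher at 8 months, with a median of 0.22. Ifitm3, an antiviral membrane protein gene, differed by 1.23 ± 0.39, Irf9, a transcription factor gene of the interferon response, by 0.39 ± 0.13 and Ifi27 by 0.46 ± 0.17 (SE), and 0 of the 10 passed limma's adjusted threshold, 4 having an unadjusted p under 0.05.

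**Figure D2:**
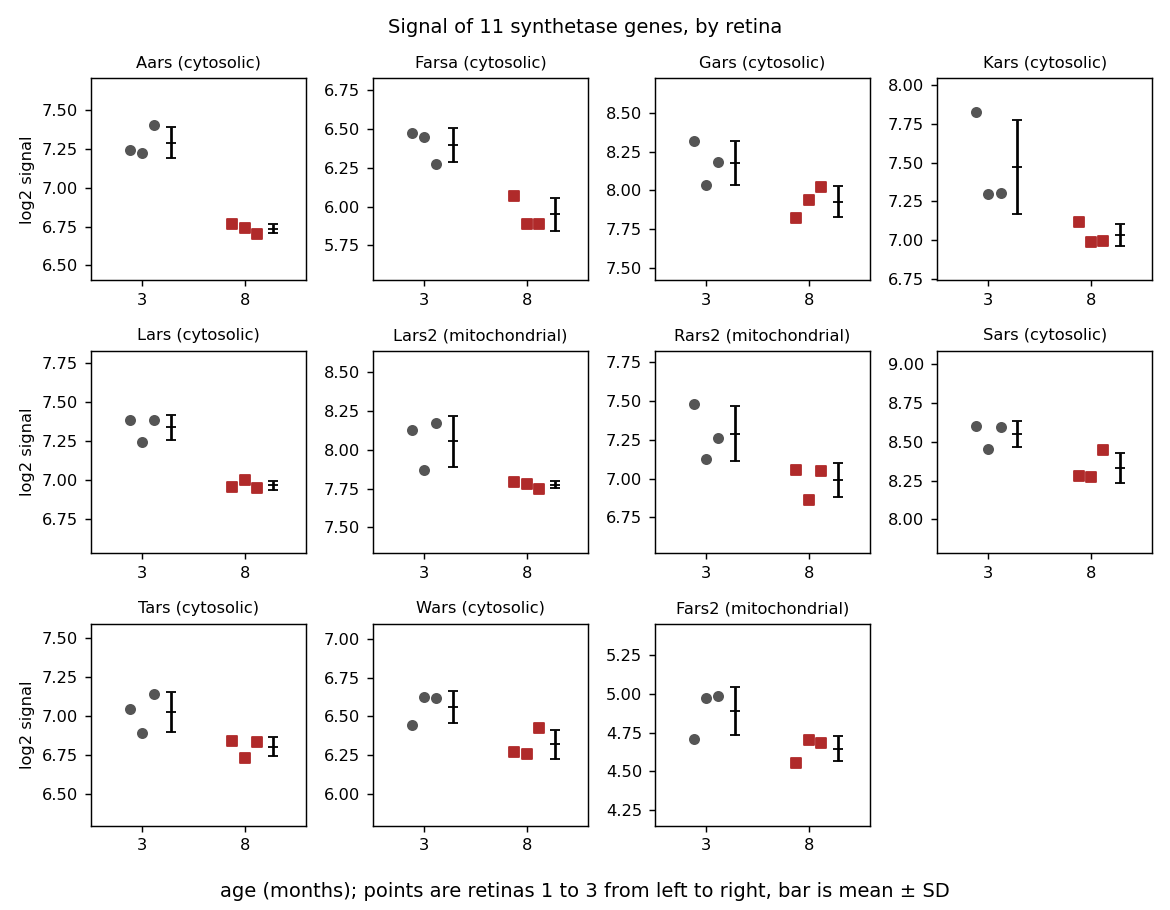
Log2 signal (y axis) by age in months (x axis) for the 8 cytosolic synthetase genes with an unadjusted limma p under 0.05 and the 3 mitochondrial ones of smallest p; grey circles are 3-month and red squares 8-month retinas 1 to 3, and bars are mean ± SD, each panel spanning the same range. In every panel the 3 older retinas lie below the 3 younger ones, most widely for Aars, at 6.70 to 6.77 against 7.23 to 7.40.

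A further 4 cytosolic genes had all older retinas below the younger ones at an unadjusted limma p above 0.05. They were Iars, the isoleucyl enzyme (difference -0.19), Rars, the arginyl enzyme (-0.25), Nars, the asparaginyl enzyme (-0.17), and Mars, the methionyl enzyme that charges the initiator tRNA (-0.18). Iars read 7.09, 7.09 and 7.07 at 3 months, the smallest spread at 3 months among the 19 cytosolic genes, and 6.80, 6.99 and 6.90 at 8 months. A second, dimmer Iars probe set was lower as well, at -0.29 ± 0.11 with separate ages (SE, limma unadjusted p = 0.0385). The separation in Rars was slight, at 7.21 in both 3-month retina 2 and 8-month retina 2 after rounding. A further Nars probe set differed by -0.036, with overlapping ages.

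The remaining 6 cytosolic genes beside Farsb overlapped between ages. Hars, the histidyl enzyme, and Yars, the tyrosyl enzyme, had differences of -0.18 and -0.20, and 8-month retina 3 at 10.99 and 3-month retina 3 at 4.98 broke the order. Eprs, the fused glutamyl-prolyl enzyme, differed by -0.11 in its brightest probe set and by 0.037 and 0.052 in the next ones. Qars, the glutaminyl enzyme, differed by -0.042, -0.14 and 0.20 in its 3 kept probe sets, all overlapping. The Farsb probe sets differed by -0.077, 0.16 and -0.11. Vars, the valyl enzyme, stood near the filter at 4.21 and 4.13 with a difference of -0.072. Cars was the 1 cytosolic gene with a difference above 0, at 0.11 ± 0.10 (SE), but its other probe set differed by -0.45 ± 0.21, and both lay within 1 log2 unit of the filter.

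**Figure D3:**
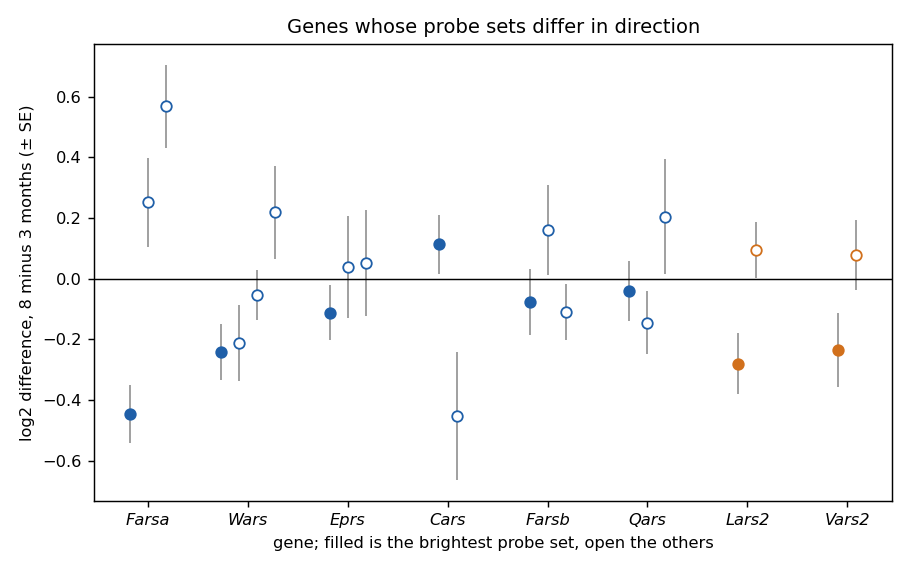
Log2 difference, 8 months minus 3 months, with its limma standard error (y axis) for every kept probe set of the 8 genes (x axis) whose probe sets differ in direction; filled points are the brightest probe set of the gene, open points the others, with cytosolic genes in blue and mitochondrial ones in orange. Farsa has the widest range, from -0.45 to 0.57.

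Several kept probe sets were available for 18 of the 31 genes. In 10 of these they all went one way and in 8 they did not: Cars, Eprs, Farsa, Farsb, Qars and Wars among cytosolic genes, and Lars2 and Vars2 among mitochondrial ones. Over all 36 kept cytosolic probe sets the median difference was -0.17, with 28 lower, against 59.4% of all probe sets. In 13 the older retinas were all below, against 14.9% of all probe sets, and in 1 all above, against 6.89%. In the fit without probe sets named _s_at, _x_at or _a_at, 13 of 17 cytosolic genes were lower, with a median of -0.18. Of these 17, 5 were lower at an unadjusted limma p under 0.05. Of all genes in that fit, 64.4% were lower and 11.3% lower at that p.

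Cytosolic genes were also described by structure and by regulation. The synthetases fall into unrelated folds, class I and class II, and 8 of 9 class I genes and 9 of 9 class II genes were lower, with medians of -0.19 and -0.22. The 7 measured enzymes of the multisynthetase complex were all lower, with a median of -0.19 and 5 of 7 separate by age. The 12 outside it had a median of -0.21 with 7 separate, where 16.9% of all genes were separate and lower. Centring on the kept probe sets took the cytosolic count of 12 separate genes to 4, against 7.45% of all genes. Enzymes listed as ATF4-induced had a median of -0.20 (13 genes, 12 lower), and the other 6 had a median of -0.21 (6 lower). With arrays centred on the kept probe sets, 6 of 9 class I, 8 of 9 class II and 6 of 7 complex genes stayed lower. Of all genes, 44.4% were lower in that fit. The 5 genes with the response element core, Aars, Gars, Iars, Tars and Yars, had differences of -0.55, -0.25, -0.19, -0.22 and -0.20. The 7 measured cytosolic genes whose windows lacked it ran from -0.45 for Farsa and -0.44 for Kars to -0.042 for Qars.

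The mitochondrial synthetase genes were somewhat more mixed by gene, but little different by probe set. Of 12 genes, 10 had a difference below 0, against 63.5% of all genes, with a median of -0.16. The range ran from -0.36 for Ears2, the glutamyl enzyme, to 0.31 for Aars2, the alanyl enzyme. Over all 19 kept mitochondrial probe sets the median was -0.11, with 14 lower. That stood beside 28 of 36 cytosolic ones and 59.4% of all probe sets. At an unadjusted limma p under 0.05, 2 of 12 were lower (11.5% of all genes) and 0 higher, and in 4 the older retinas all lay below (16.9% of all genes). The count of 2 was 0 without 8-month retina 1 or without 8-month retina 2, and 1 without 8-month retina 3, 3-month retina 1 or 3-month retina 3. The count of 4 was 7 without 8-month retina 3, a fit with fewer arrays in which 25.2% of all genes were so. The median was -0.088 without 8-month retina 1 and -0.057 without both crystallin-rich retinas, where all genes had -0.050. After quantile normalisation, after cyclic loess and with centring on the kept probe sets 9 of 12 were lower, and after median centring 10. Of all genes, 54.7%, 53.5%, 44.4% and 68.2% were lower under these, in that order.

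Lars2, the leucyl enzyme of mitochondria, read 8.13, 7.87 and 8.17 at 3 months and 7.80, 7.78 and 7.75 at 8 months. The older retinas agreed closely and lay below the younger ones, with a difference of -0.28 ± 0.10 (SE, limma unadjusted p = 0.0270, adjusted p = 0.293). A dimmer Lars2 probe set differed by 0.095 ± 0.093 with overlapping ages. Rars2, the arginyl enzyme, whose loss causes a pontocerebellar disorder in people, read 7.48, 7.13 and 7.26 at 3 months and 7.06, 6.86 and 7.05 at 8 months. Its ages were separate, with a difference of -0.30 ± 0.12 (SE, limma unadjusted p = 0.0356, adjusted p = 0.308). Fars2, the phenylalanyl enzyme, read 4.71, 4.97 and 4.99 at 3 months and 4.55, 4.70 and 4.69 at 8 months, nearly touching, with a difference of -0.24 ± 0.10 (SE, limma unadjusted p = 0.0521, adjusted p = 0.339). A second Fars2 probe set was lower by a similar size, at -0.33 ± 0.21, with overlapping ages.

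Ears2 read 4.34, 4.34 and 4.21 at 3 months and 3.71, 3.83 and 4.29 at 8 months. Only 8-month retina 3 reached the younger range, and the gene was close to the filter. Vars2, the valyl enzyme, was separate by age, at a difference of -0.24 ± 0.12 (SE), but its other probe set differed by 0.079. Aars2 read 5.43, 5.91 and 5.56 at 3 months and 5.78, 5.83 and 6.21 at 8 months, overlapping, with the largest difference above 0 among the 31 genes, 0.31 ± 0.16 (SE, limma unadjusted p = 0.103). The other 6 mitochondrial genes, Cars2, Yars2, Iars2, Tars2, Hars2 and Mars2, overlapped between ages, with differences from -0.16 for Iars2 to 0.028 for Mars2.

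Among the 4 genes below the filter, Nars2 read 3.89, 4.19 and 3.89 at 3 months and 3.85, 3.87 and 3.73 at 8 months. Sars2 read 3.52 to 4.16 and 3.80 to 4.04, Wars2 in its brighter probe set 3.51 to 3.60 and 3.59 to 3.83, and Pars2 2.94 to 3.20 and 3.15 to 3.43. At this level the method of the authors compresses signals, so the differences are not read further.

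Cytosolic and mitochondrial enzymes of the same amino acid could be set side by side in 11 pairs. In 8 of 11 the cytosolic gene had the lower difference, and in 2 of the 11 the within-array log2 ratio of cytosolic to mitochondrial signal was separate by age. The Aars to Aars2 ratio was 1.81, 1.32 and 1.84 at 3 months and 0.984, 0.911 and 0.490 at 8 months, a shift of -0.86. The Mars to Mars2 ratio shifted by -0.21. The exact two-sided permutation p was 0.1 for each, the smallest that 3 against 3 can give, so neither shift could pass. The Lars to Lars2 and Rars to Rars2 ratios overlapped, shifting by -0.092 and 0.050 (exact permutation p = 0.2 and 1).

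**Figure D4:**
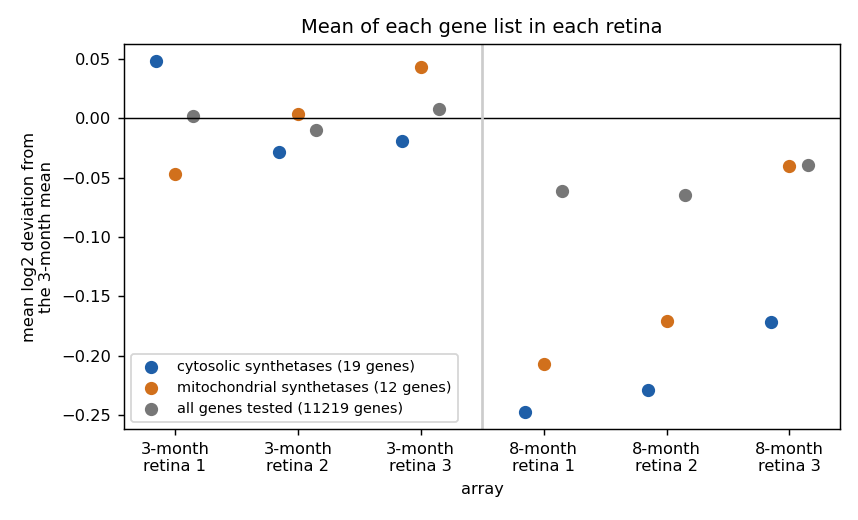
Mean log2 deviation from the mean of the 3-month retinas (y axis) in each of the 6 arrays (x axis) for 19 cytosolic synthetase genes, 12 mitochondrial ones and all 11219 genes tested, each point 1 retina. The cytosolic mean lies between -0.25 and -0.17 in the older retinas, while all genes lie between -0.064 and -0.039.

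Array by array, the cytosolic genes deviated on average from the 3-month mean by -0.25, -0.23 and -0.17 in 8-month retinas 1 to 3, and by 0.048, -0.029 and -0.019 in 3-month retinas 1 to 3. The older retinas thus resembled each other, and 18, 18 and 16 of the 19 genes lay below the 3-month mean in them. The mitochondrial means were -0.21, -0.17 and -0.040 at 8 months and -0.047, 0.0040 and 0.043 at 3 months, so that 8-month retina 3 overlapped the younger ones. Without both crystallin-rich retinas, 17 of 19 cytosolic genes were lower, with a median of -0.18, and 5 had an unadjusted limma p under 0.05, against 61.6% and 5.12% of all genes in that fit.

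**Figure D5:**
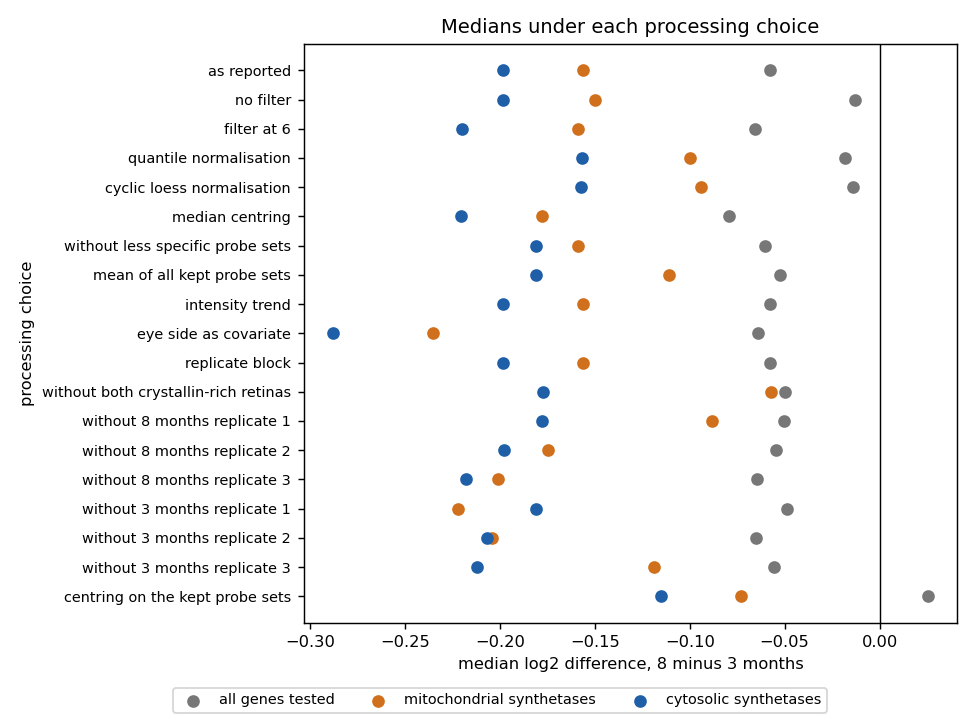
Median log2 difference, 8 months minus 3 months (x axis), of the cytosolic synthetase genes, the mitochondrial ones and all genes tested under the reported processing and each of 18 alternatives (y axis). The choice marked as without less specific probe sets leaves out those named _s_at, _x_at or _a_at. The cytosolic median lies below that of all genes in each, between -0.29 and -0.12. Both centrings, the intensity trend of the variance model and the replicate block cannot change the gap between the cytosolic and all-gene medians. The -0.29, with eye side as a covariate, rests on 8-month retina 1 alone among the older retinas. The mitochondrial median comes near that of all genes without both crystallin-rich retinas, at -0.057 against -0.050.

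Proteins that assist the synthetases were divided. Of 11 cofactor and proofreading genes, 6 were lower (63.5% of all genes), with a median of -0.078. The balance turned under quantile normalisation, with 5 lower, against 54.7% of all genes. Qrsl1, a subunit of the amidotransferase that makes mitochondrial glutaminyl-tRNA in the absence of a mitochondrial glutaminyl synthetase, read 7.15, 7.29 and 6.98 at 3 months and 6.53, 6.62 and 6.54 at 8 months. That is a difference of -0.58 ± 0.10, with separate ages (SE, limma unadjusted p = 6.54e-04, adjusted p = 0.177). Aimp2 and Aimp1, scaffold proteins of the multisynthetase complex, differed by -0.38 ± 0.16 and -0.25 ± 0.11 (SE), each with overlapping ages. Of 7 elongation factor genes, 6 were lower, with a median of -0.17. With centring on the kept probe sets 5 were lower, against 44.4% of all genes. Tufm and Gfm1, elongation factors of mitochondria, differed by -0.28 each with separate ages, and Eef2, the cytosolic translocation factor, by -0.17 with overlapping ages.

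Genes that mature, modify or export tRNA were lower in 19 of 23, against 63.5% of all genes, with a median of -0.16. An unadjusted limma p under 0.05 was found for 5 of 23, all lower, against 11.5% of all genes. After quantile normalisation 17 of 23 were lower, and with centring on the kept probe sets 15. Of all genes, 54.7% and 44.4% were lower in these fits, in that order. Trmu, which thiolates mitochondrial tRNAs, differed by -0.50 ± 0.091, Trmt10a, a tRNA methyltransferase, by -0.48 ± 0.10, and Rpp30, a subunit of ribonuclease P, by -0.37 ± 0.10 (SE, limma adjusted p = 0.183, 0.208 and 0.230). In each of these 3 the older retinas all lay below the younger ones.

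A list of 13 tested genes held eIF2 kinases, eIF2 and its exchange factor, with Gcn1 and Impact. Among them 10 were lower, near the 63.5% of all genes, with a median of -0.098. After centring on the kept probe sets 7 of 13 were lower, against 44.4% of all genes, with a median of -0.015. Eif2ak4, which encodes GCN2, read 6.40, 6.48 and 6.78 at 3 months and 6.15, 6.28 and 6.19 at 8 months, a difference of -0.34 ± 0.12 with separate ages (SE, limma unadjusted p = 0.0206, adjusted p = 0.278). Eif2b4, a subunit of the exchange factor, differed by -0.36 ± 0.11, and Eif2ak2, the interferon-induced kinase PKR, stood higher by 0.39 ± 0.12 with separate ages (SE). ATF4 pathway targets other than synthetases were lower in 19 of 27, also near the 63.5% of all genes, with a median of -0.045 against -0.058 for all genes. Their median was 0.038 with centring on the kept probe sets. Their smallest p values belonged to Slc7a1, an arginine and lysine transporter gene, at -0.61 ± 0.21, Slc7a5, a transporter gene for large neutral amino acids, at -0.42 ± 0.17, and Trib3, a pseudokinase gene induced by ATF4, at -0.19 ± 0.086 (SE, limma adjusted p = 0.285, 0.312 and 0.362). All 3 had separate ages. Slc7a1 was high in the crystallin-rich 3-month retina 3, at 11.22 against 10.49 and 10.41 in the other younger retinas. Over these 6 lists 0 genes passed limma's adjusted threshold, against 0.00891% of all genes. At an unadjusted limma p under 0.05, 2 of 11 cofactor, 2 of 7 elongation factor, 5 of 23 tRNA maturation, 3 of 13 eIF2 and 2 of 27 ATF4 target genes were lower, against 11.5% of all genes. Those higher were 1 of 13 eIF2 and 4 of 10 interferon genes, against 3.58%. With arrays centred on the kept probe sets the lower counts were 1, 0, 4, 1 and 1, in the same order, against 5.03% of all genes. Those higher in that fit were 1 tRNA maturation, 3 eIF2, 1 ATF4 target and 4 interferon genes, against 8.54%.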

How the data were processed

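Per the submitters' processing notes, the authors made the deposited log2 signals per probe set with GCRMA 1.1.0 in R 1.9.0. That method models background by probe sequence, so weak signals are compressed. Per the labels' protocols, 20 ng of RNA per retina was amplified and biotin-labelled. Groups and replicate numbers came from sample titles. Of 45101 probe sets, 64 controls were left out. Probe sets were kept where at least 3 values reached 4. Genes were named where the platform annotation gave 1 symbol. The test was limma 3.58.1 (R 4.3.3; lmFit, eBayes), two-sided, Benjamini-Hochberg adjusted over 20973 probe sets, with no covariate, and the fit was tested on simulated data. Lists are described by counts and medians beside all genes. Named in full were members with an unadjusted p under 0.05 and at least 3 per compartment, every kept probe set where a gene's probe sets disagreed, and of other lists the 3 genes of smallest p. Members, lists and the alternative without crystallin-rich retinas were chosen with earlier results of these data known. Alternatives covered filter, scaling, probe sets, variance model, eye side, replicate number and arrays left out. The number of arrays limits the precision. Protein sequences were not used here. A further sequence is not reported here.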

Additional observations from a re-analysis of the deposited data

How the results depend on the processing

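Of 18 alternatives, 17 were planned and 1, centring on the kept probe sets, was chosen after seeing the data. The number of synthetase genes past the limma adjusted threshold was 0 under every one of them. The cytosolic count at an unadjusted p under 0.05, 8 as reported, was 4 after quantile normalisation, cyclic loess or centring on the kept probe sets. The count was 5 of 17 without probe sets named _s_at, _x_at or _a_at, and 5 of 19 without both crystallin-rich retinas. Of all genes, 11.3% and 5.12% were lower at that p in these fits, in that order. Replicate numbers did not pair the retinas: the correlations of same-numbered retinas' deviations were -0.14, 0.064 and -0.28, and 3-month retina 3 correlated best with 8-month retina 1, at 0.38. With the replicate block the cytosolic count was 4, where 9.16% of all genes were lower at that p. Leaving out single retinas gave 4 to 8. The mitochondrial count, 2 as reported, was 1 after quantile normalisation or cyclic loess. The count was 4 after median centring, where 13.6% of all genes were lower at that p. It was 0 without both crystallin-rich retinas or with centring on the kept probe sets, and 0 to 2 without single retinas. Cytosolic genes with all older retinas below, 12 as reported, numbered 6, 5 and 4 after quantile normalisation, cyclic loess and centring on the kept probe sets, and 12 to 13 without single retinas. Mitochondrial ones, 4 of 12 as reported, numbered 2 of the 5 genes tested with the filter at 6. They numbered 2 of 12 with centring on the kept probe sets, 1 of 12 with the mean of all kept probe sets, and 3 to 7 without single retinas. Of all genes, 19.2%, 7.45% and 16.5% were so with the filter at 6, that centring and that mean. In the fits without single retinas, 21.4% to 28.5% of all genes had all older retinas below, against 16.9% as reported. The cytosolic median was -0.16 after quantile normalisation and cyclic loess, -0.29 with eye side as a covariate and -0.12 with centring on the kept probe sets. All 3-month retinas were left eyes, so the eye-side estimate sets only 8-month retina 1, the 1 older left eye, against the 3-month mean. The mitochondrial median was -0.24 with eye side, -0.057 without both crystallin-rich retinas and -0.073 with centring on the kept probe sets. Without single retinas the medians ran from -0.22 to -0.18 and from -0.22 to -0.088. Beyond the make-up of the eye-side fit, the cause of these shifts was not tested.

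No sign turned in 22 genes. The filters, the intensity trend and the replicate block left each gene's difference as it was, so they could turn no sign. For a gene with 1 kept probe set the probe-set alternatives could turn none either. With probe sets named _s_at, _x_at or _a_at left out, which puts another probe set in place, Farsa, Qars and Wars turned to 0.25, 0.20 and 0.22. With the mean of all kept probe sets, Cars was -0.17, Farsa 0.12 and Qars 0.0059. Hars2 turned to 0.026 after quantile normalisation and 0.033 after cyclic loess. Without both crystallin-rich retinas Vars, Iars2 and Mars2 were 0.061, 0.13 and -0.022. With centring on the kept probe sets Farsb, Qars, Vars and Hars2 were 0.0062, 0.041, 0.011 and 0.040. Among fits without single retinas, Vars ran from -0.16 to 0.036, Qars from -0.097 to 0.026, Farsb from -0.15 to 0.027, Hars2 from -0.12 to 0.037, Iars2 from -0.26 to 0.030 and Mars2 from -0.018 to 0.070. Genes near the filter (Cars, Vars, Ears2, Fars2, Vars2) are limited by signal over background.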

Other observations

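A probe set annotated to both Aars and its neighbour Exosc6, an exosome subunit gene, lay outside the rule for members. It read 5.51, 5.48 and 5.37 in the 3-month retinas and 5.02, 5.08 and 5.11 in the 8-month ones, with all older values below the younger ones. The difference was -0.38 ± 0.080 (SE, limma unadjusted p = 0.00198, adjusted p = 0.207), between those of the Aars probe sets. Which of the genes it reads was not tested.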
